A study of Mus musculus with 4 samples.

Results

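The Ms4a genes expressed in macrophages were examined in the epididymal adipose tissue of obese mice with different dietary histories. The set holds 7 members, taken by gene symbol (Ms4a4a, Ms4a4b, Ms4a4c, Ms4a6b, Ms4a6c, Ms4a6d and Ms4a7) from the 24421 genes of the expression matrices. A value was read for 6 of them, and all 6 were among the 14106 genes that passed the filter on low values. The expression of Ms4a4a was not analysed here. All mice were wild-type C57BL/6J males, and whole tissue, not sorted cells, was sequenced. Control mice (Ctrl, n = 2 libraries) were given a high-fat diet (HFD) at an age of 10 weeks and ate it without a break over the next 14 weeks. Weight-cycled mice (WC1, n = 2 libraries) started HFD at 8 weeks of age, stayed on it for 8 weeks, changed to standard diet (SD) for 2 weeks and returned to HFD for 6 weeks. Both groups had thus eaten HFD for 14 weeks in all and were 24 weeks old at the end. The groups differed in the past weight loss and regain. They also differed in age at HFD start (10 and 8 weeks) and in the last unbroken HFD period (14 and 6 weeks). These differences cannot be told apart.

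Ms4a stands for membrane-spanning 4-domains subfamily A. The proteins cross the membrane several times, and many act beside other receptors at the cell surface instead of binding a ligand alone. The best-known members belong to other leukocytes: Ms4a1 is CD20 of B cells and Ms4a2 is the beta chain of the high-affinity IgE receptor of mast cells. Ms4a7 and the Ms4a6 genes are characteristic of macrophages, MS4A4A is known to associate with the beta-glucan receptor dectin-1 (Clec7a), and Ms4a4b is best known from T cells, where it restrains proliferation.

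In the mouse genome (GRCm38, GENCODE annotation) the 7 members lay within 283.8 kb, at chr19:11321039-11604849, with Ms4a4d the only other family gene in that span. Ms4a7 lay at chr19:11321039-11336146 on the minus strand and Ms4a6d at chr19:11586604-11604849 on the minus strand. Between them, all on the plus strand, came Ms4a4a, Ms4a4c (chr19:11404770-11427246), Ms4a4b (chr19:11443553-11467055), Ms4a6c (chr19:11469366-11482192) and Ms4a6b (chr19:11516512-11531256). The family has copies that are alike. The bases shown next lie before the transcript start. Sequence shared between transcripts, which bears on how reads can be assigned to a gene, is given further below. The 250 bases before the RefSeq transcript start (GRCm38.p6) are shown for the pairs whose start regions were most alike, Ms4a6c with Ms4a6b and Ms4a4c with Ms4a4b. They read 5′ to 3′ on the plus strand, and capitals mark stretches of at least 15 bases that are identical within the pair.
Ms4a6c, chr19:11469118-11469367: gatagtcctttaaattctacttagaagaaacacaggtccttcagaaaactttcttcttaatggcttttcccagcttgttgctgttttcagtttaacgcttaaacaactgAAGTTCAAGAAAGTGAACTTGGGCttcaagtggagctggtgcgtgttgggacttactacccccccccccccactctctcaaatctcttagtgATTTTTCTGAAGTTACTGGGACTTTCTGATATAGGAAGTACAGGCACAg
Ms4a6b, chr19:11518309-11518558: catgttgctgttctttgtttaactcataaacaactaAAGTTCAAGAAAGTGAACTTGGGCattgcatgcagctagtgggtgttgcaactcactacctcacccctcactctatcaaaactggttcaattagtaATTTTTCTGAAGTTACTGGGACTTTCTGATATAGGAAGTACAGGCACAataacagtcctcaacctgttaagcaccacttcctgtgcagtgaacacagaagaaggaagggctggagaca
Ms4a4c, chr19:11407411-11407660: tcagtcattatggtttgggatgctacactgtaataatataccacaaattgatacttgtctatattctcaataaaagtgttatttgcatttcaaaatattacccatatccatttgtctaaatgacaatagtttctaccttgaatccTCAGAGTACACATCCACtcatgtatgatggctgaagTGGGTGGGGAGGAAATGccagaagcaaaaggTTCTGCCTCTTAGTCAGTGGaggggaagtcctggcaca
Ms4a4b, chr19:11443308-11443557: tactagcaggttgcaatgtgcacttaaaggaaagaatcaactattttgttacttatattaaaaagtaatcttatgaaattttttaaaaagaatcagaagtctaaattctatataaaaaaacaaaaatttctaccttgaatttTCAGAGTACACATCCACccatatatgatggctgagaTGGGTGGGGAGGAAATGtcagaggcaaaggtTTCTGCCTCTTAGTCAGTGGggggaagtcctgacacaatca

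Ms4a6c and Ms4a6b shared 72 bases in such stretches, the longest of 48 bases, and Ms4a4c and Ms4a4b shared 54 bases with a longest stretch of 20. Over windows of 300 bases (250 before and 50 after the start) the identity was 64.0% for Ms4a6b and Ms4a6c and 76.7% for Ms4a4b and Ms4a4c. The windows, 7 in number, came from the members other than Ms4a6d, Ms4a4a included. The start region of Ms4a6d was not analysed here. The other 18 pairs among these windows had identities between 51.0% and 57.7%. Both strands of these windows were searched for letters bound by factors of myeloid cells. The letters GAGGAAGT, a form of the PU.1 site held by 3.2% of 32851 mouse promoters, and GAAA, any 2 bases and GAAA, a form of the interferon-stimulated response element held by 3.44%, were in 0 of the 7 windows. The shorter ETS core AGGAAGT, which lies inside the PU.1 letters and was added after the first search, was in Ms4a6c and Ms4a6b and in 9.35% of all promoters. In both genes a copy lay in the 48-base shared stretch. The AP-1 letters TGANTCA were in Ms4a7 and Ms4a4b and in 7.81% of all promoters.

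The 4 libraries held between 61465029 and 90965297 reads, at which 3 reads were worth 0.0345 to 0.0492 CPM. The members with values lay above this level in every library. The tissue's own markers were present: 10 of 10 adipocyte markers were above 0 in every library. Expression is given as CPM, reads divided by a scaled library size, with SD over the 2 libraries of a group. Differences are WC1 minus Ctrl on the log2(CPM + 1) scale with their standard error (SE), which understates the change of genes near 1 CPM, and p-values are from limma with Benjamini-Hochberg adjustment over the 14106 genes. The labels do not say whether the libraries of a group came from separate mice, so the p-values measure the spread between these libraries only.

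Of the 6 members with values, 4 (Ms4a6d, Ms4a7, Ms4a6c and Ms4a6b) fell in WC1 with a limma adjusted p under the threshold of 0.05, while 7.71% of all genes tested were called lower. By limma 0 members were called higher, against 10.2% of all genes. At an unadjusted p under 0.05, 0 members were higher, and 5329 of 14106 genes passed in either direction. edgeR and DESeq2 on the reads recovered from the CPM values also called 4 members lower, against 7.14% and 12.3% of all genes, and 0 higher, against 10.5% and 15.1%. With TPM values limma called 3 members lower, against 3.88% of all genes, and 0 higher, against 13.7%. Both WC1 libraries lay below both Ctrl libraries for 5 members, an arrangement seen in 36.6% of all genes, and 0 members had the opposite arrangement, seen in 32.7%. The median log2 difference of the 6 was -0.84, against -0.02 over all genes. Together they gave 432 and 402 CPM in Ctrl and 225 and 156 CPM in WC1, so WC1 held 45.8% of the Ctrl mean. In bulk tissue, fewer cells of a type and less RNA per cell cannot be told apart.

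**Figure D1:**
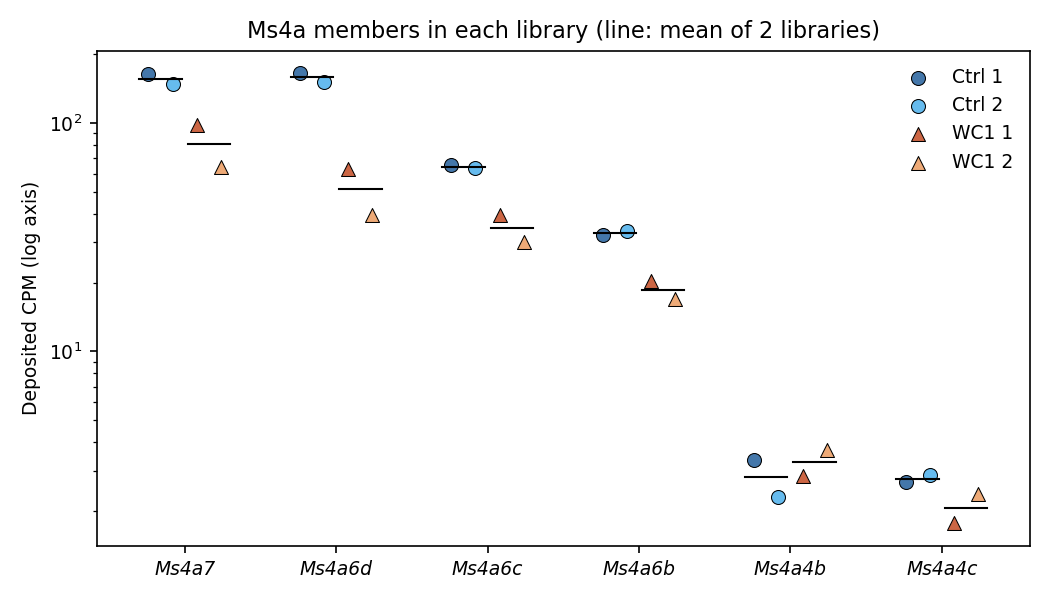
CPM of each Ms4a member in every library on a logarithmic axis, with Ctrl and WC1 points and a bar at each group mean. The abundant members Ms4a6d, Ms4a7, Ms4a6c and Ms4a6b have both WC1 points below both Ctrl points, and Ms4a4b, at 2.30 to 3.69 CPM, has overlapping groups.

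Ms4a6d, a macrophage member that has been linked to inflammatory activation, had the largest difference among the members. It stood at 165 and 152 CPM in Ctrl against 62.8 and 39.6 CPM in WC1. Both WC1 libraries were well below both Ctrl libraries, and the second WC1 library was the lowest. The mean was 158 ± 9.32 CPM in Ctrl and 51.2 ± 16.4 CPM in WC1 (SD, n = 2 each), which is 32.3% of Ctrl. The log2 difference was -1.64 ± 0.22 (SE; limma adjusted p = 0.0187).

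Ms4a7, used as a macrophage marker, was as abundant as Ms4a6d in Ctrl but fell less. Its values were 163 and 148 CPM in Ctrl and 98.1 and 63.8 CPM in WC1. The groups did not overlap, and the WC1 libraries were further apart than the Ctrl libraries. WC1 reached 52.0% of the Ctrl mean, a log2 difference of -0.97 ± 0.21 (SE; limma adjusted p = 0.0402). This call was the closest to the threshold among the members, and it was lost with TPM values (adjusted p = 0.0549).

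Ms4a6c and Ms4a6b, the neighbouring copies with the shared start region, had differences of similar size. Ms4a6c stood at 65.5 and 63.3 CPM in Ctrl against 39.5 and 30.0 CPM in WC1, and its log2 difference was -0.88 ± 0.14 (SE; limma adjusted p = 0.0236). Ms4a6b stood at 32.4 and 33.5 CPM in Ctrl against 20.3 and 16.9 CPM in WC1, with a log2 difference of -0.80 ± 0.11 (SE; limma adjusted p = 0.0193). For both genes the Ctrl libraries were close to each other and WC1 lay at 54.0% and 56.4% of the Ctrl mean.

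Ms4a4c and Ms4a4b were near the lower end of expression. Ms4a4c gave 2.69 and 2.86 CPM in Ctrl and 1.77 and 2.37 CPM in WC1. Both WC1 values were below Ctrl, but the log2 difference of -0.31 ± 0.15 (SE) did not pass the test (limma adjusted p = 0.193). Ms4a4b gave 3.33 and 2.30 CPM in Ctrl and 2.85 and 3.69 CPM in WC1. Its groups overlapped, and the log2 difference was 0.17 ± 0.19 (SE; limma adjusted p = 0.551).

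With either Ctrl library left out, 1 Ctrl library remained, the spread came from the WC1 pair and was assumed to hold for Ctrl, and 0 of the 4 members were called. Without Ctrl 1 their adjusted p ranged from 0.140 to 0.225 and without Ctrl 2 from 0.0983 to 0.156, with every direction kept. The log2 difference of Ms4a6d was -1.59 and -1.70 in these fits, and that of Ms4a6b was -0.82 and -0.77. In the same fits only 4 and 10 genes of the whole table were called lower, against 1088 with all libraries.

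**Figure D2:**
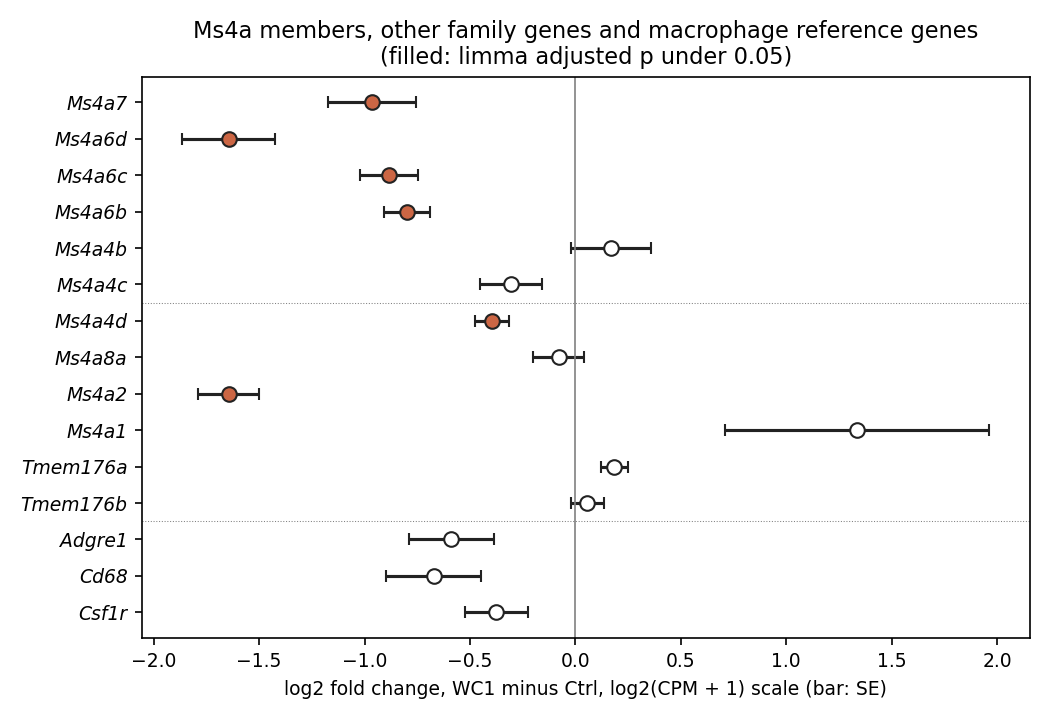
Log2 difference (WC1 minus Ctrl) with SE for the Ms4a members, the other Ms4a family genes that passed the filter and the macrophage reference genes Adgre1, Cd68 and Csf1r, with filled points for a limma adjusted p under 0.05. Ms4a6d and Ms4a2 lie furthest to the left, both at -1.64, and the reference genes lie between -0.67 and -0.37 with open points. The scale understates the change of Ms4a2, whose WC1 mean was 14.4% of Ctrl, against 32.3% for Ms4a6d.

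Compared per transcript length (TPM, which allows genes to be set beside each other), Ms4a7 and Ms4a6d led the family in Ctrl with 233 and 214 TPM and with 230 and 213 TPM. These neighbours in the order did not differ beyond their spread. Ms4a6c followed with 76.9 and 73.0 TPM and Ms4a6b with 36.7 and 38.3 TPM, each clear of its neighbours in both libraries. Ms4a4b (5.06 and 3.53 TPM) and Ms4a4c (2.98 and 3.20 TPM) came last. In WC1 Ms4a7 stood at 153 and 103 TPM and Ms4a6d at 95.5 and 62.1 TPM, so the order of the 2 genes was the same in all 4 libraries and the gap between them was wider in WC1. As a share of the summed TPM of the 6 members, Ms4a6d went from 39.3% and 39.1% in Ctrl to 28.9% and 26.6% in WC1, and Ms4a7 from 39.9% and 39.3% to 46.3% and 44.0%. The shares of a library sum to the whole, so they do not move independently.

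**Figure D3:**
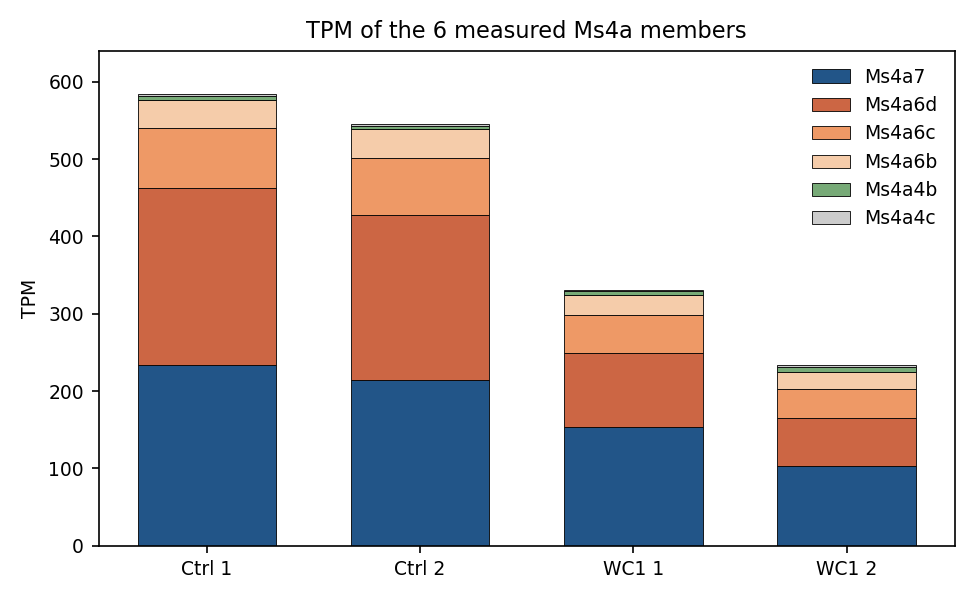
Stacked bars of TPM for the 6 Ms4a members in each library, from 0. The summed level was 584 and 546 TPM in Ctrl and 331 and 233 TPM in WC1, and the Ms4a6d segment narrows most.

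Reads from stretches that copies share can be split between genes by the counting step, so the paralogs were also summed. Ms4a6b, Ms4a6c and Ms4a6d together gave 263 and 248 CPM in Ctrl and 123 and 86.5 CPM in WC1, with a log2 difference of -1.30 ± 0.17 (SE; limma adjusted p = 0.0185). Ms4a4b and Ms4a4c together gave 6.02 and 5.16 CPM in Ctrl and 4.62 and 6.05 CPM in WC1, groups that overlapped, with a log2 difference of -0.06 ± 0.16 (SE; limma adjusted p = 0.795). Each of the Ms4a6 genes was lower on its own, so their sum had to be lower, and in Ctrl most of the sum was Ms4a6d.

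In the annotated transcripts, 0% of the 100-base windows of Ms4a6b, Ms4a6d and Ms4a7 matched another gene, and at 50 bases the shares were 3.57%, 2.54% and 0.306%. For Ms4a4b and Ms4a4c 0.473% and 1.66% of the 100-base windows were shared, all within the family, and 2.4% and 8.19% of the 50-base windows, of which 198 of 212 for Ms4a4b were within it. Ms4a6c was the exception, since 45.8% of its 100-base windows were shared with other genes. The main partner was the antisense gene BE692007, which overlaps it over 12027 bp, exons included. Ms4a6b overlaps the antisense gene Gm19261 over 442 bp, and Ms4a4c overlaps the pseudogene Gm5692 over 235 bp. The libraries were made with a directional kit, but no source used here states whether counting used the strand, and the value of Ms4a6c may include antisense reads.

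**Figure D4:**
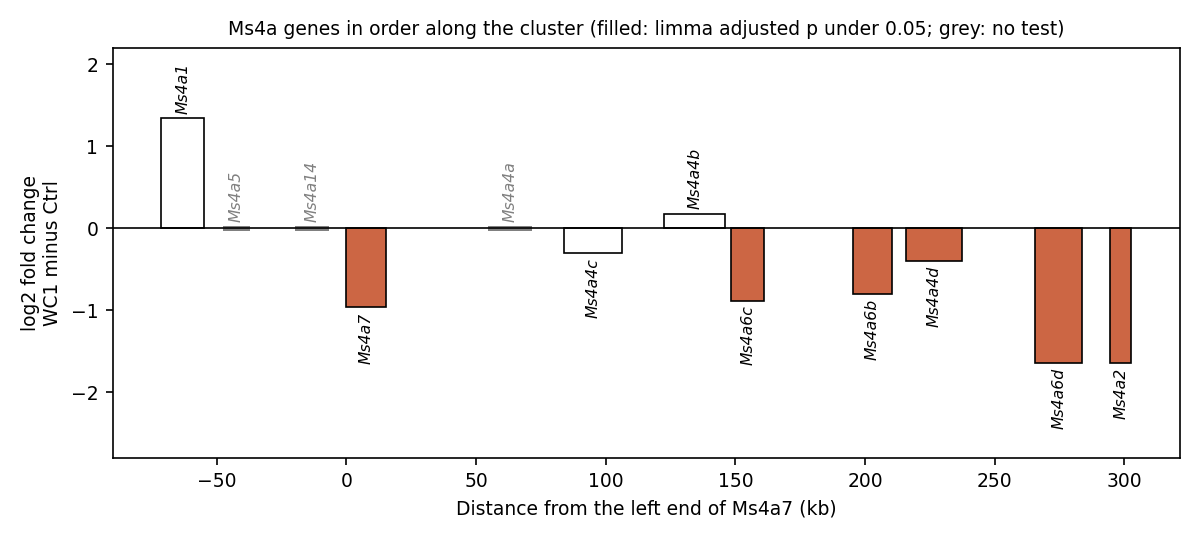
Ms4a members and the family genes within and beside their span, drawn to scale as boxes along the distance in kb from the left end of Ms4a7, with box height giving the log2 difference (WC1 minus Ctrl), filled boxes a limma adjusted p under 0.05 and flat grey boxes genes without a test. Ms4a7 (-0.97) and Ms4a6d (-1.64) lie at opposite ends of the members' span, and Ms4a4b and Ms4a4c, between them, did not pass the test.

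Markers of macrophages were set beside the members because the tissue is a mixture of cells. Of 16 macrophage markers, 9 were called lower, and the median log2 difference was -0.68 (range -1.25 to -0.22). Their summed level was 17160 and 15880 CPM in Ctrl and 10620 and 7484 CPM in WC1, and no marker was at 0 in any library. The largest support was for Mrc1, the mannose receptor (-0.89 ± 0.13, limma adjusted p = 0.0213), and Mertk, a receptor for dying cells (-0.60 ± 0.10, limma adjusted p = 0.0238). The pan-macrophage genes Adgre1, which encodes F4/80 (-0.59, limma adjusted p = 0.103), Cd68 (-0.67, limma adjusted p = 0.0998) and Csf1r, the CSF1 receptor (-0.37, limma adjusted p = 0.141), did not pass the test. The 16 markers all had negative differences, as did the members other than Ms4a4b, and the part of the markers' change in the members' differences was not tested.

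To set the members beside the markers, the mean log2(CPM + 1) of the 16 macrophage markers was subtracted from each member in each library. Ms4a6d stood at -1.46 and -1.50 relative to the markers in Ctrl and at -2.32 and -2.53 in WC1. Ms4a6d was thus lower in WC1 relative to the macrophage markers too, without overlap between groups, and its fall was larger than that of 16 of the 16 markers. Ms4a7 stood at -1.48 and -1.53 in Ctrl and at -1.68 and -1.86 in WC1, and 15 of the 16 markers fell less. Ms4a6c (-2.78 and -2.75 against -2.97 and -2.92) and Ms4a6b (-3.77 and -3.64 against -3.90 and -3.71) were closer to the course of the markers, and the groups overlapped for Ms4a6b.

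In a limma fit of all genes scaled in this way, an alternative chosen after the data were seen, Ms4a6d was the only member called lower (-0.95 ± 0.25, adjusted p = 0.00105), when 0.858% of all genes were called lower. The macrophage marker Lyz2, named after its values were seen, was also called lower (-0.55 ± 0.17, limma adjusted p = 0.00567). The differences of Ms4a7 (-0.27 ± 0.25, limma adjusted p = 0.305), Ms4a6c (-0.18 ± 0.27, limma adjusted p = 0.515) and Ms4a6b (-0.10 ± 0.28, limma adjusted p = 0.743) did not pass. Ms4a4b was called higher (0.87 ± 0.33, limma adjusted p = 0.0193), as were 58.8% of all genes in this scaling. The fit takes the marker mean as known without error, so its p-values leave that error out.

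**Figure D5:**
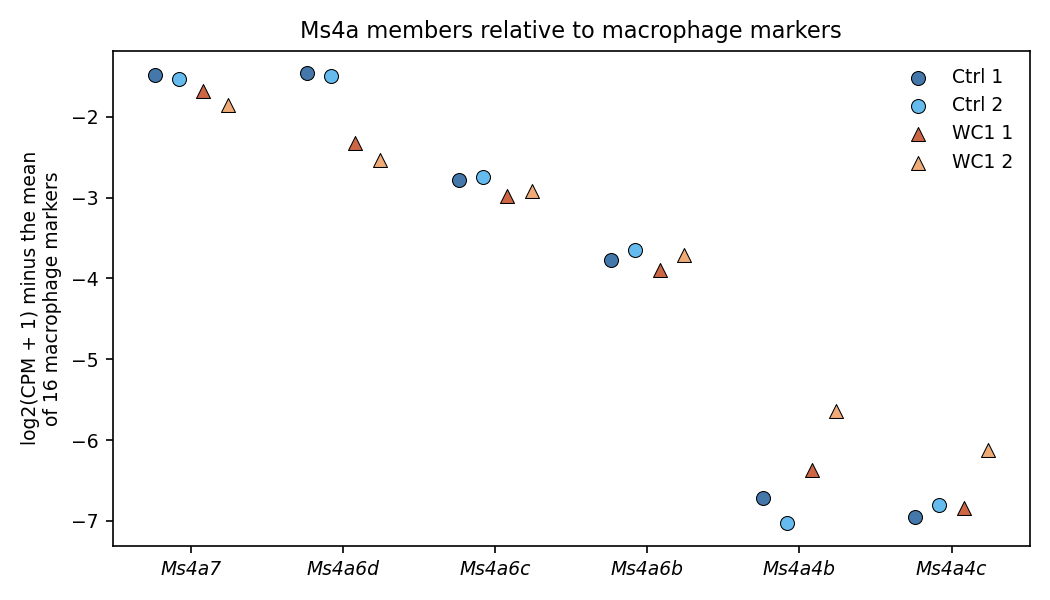
Level of each Ms4a member relative to the mean of 16 macrophage markers (log2, member minus markers) in each library, with Ctrl and WC1 points. Ms4a6d goes from -1.46 and -1.50 in Ctrl to -2.32 and -2.53 in WC1, and the shifts of Ms4a6b and Ms4a6c are far smaller.

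Narrower macrophage and monocyte lists were counted in the same way. Among 12 resident macrophage markers 6 were called lower, with a median of -0.49. The smallest p belonged to Cd5l, a secreted survival factor of macrophages (-4.43 ± 0.17, limma adjusted p = 0.00354), and Pf4 (-0.88 ± 0.11, limma adjusted p = 0.0163). Timd4 (0.68) and Cd163 (0.36) on the same list had both WC1 libraries above both Ctrl libraries but did not pass the test, and both were named after their values were seen. Among 12 lipid-associated macrophage markers 3 were called lower, with a median of -0.87. Here the smallest p belonged to Spp1, osteopontin (-2.70 ± 0.33, limma adjusted p = 0.0164), and the lysosomal membrane protein Cd63 (-0.90 ± 0.19, limma adjusted p = 0.039). Fabp4, Fabp5, Lpl and Plin2 on this list are also made by adipocytes. Of 12 monocyte markers 3 were called lower and 2 higher, with a median of 0.12. Treml4 (-1.26) and Vcan (-0.87) had the smallest p, and the 2 called higher, named after their values were seen, were the chemokine receptor Ccr2 (0.49, limma adjusted p = 0.0279) and haptoglobin, Hp (1.06, limma adjusted p = 0.0449). Hp is also made by adipocytes, and it stood at 2553 and 2145 CPM in Ctrl against 4183 and 5666 CPM in WC1, far above Ccr2.

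Genes whose products are known to work with Ms4a proteins or beside them on macrophages were listed as partners. Of 10 such genes 4 were called lower, with a median of -0.75. The inhibitory Fc receptor Fcgr2b stood at 90.5 and 96.5 CPM in Ctrl and 58.9 and 52.5 CPM in WC1 (-0.74 ± 0.09, limma adjusted p = 0.0157). The Fc receptor gamma chain Fcer1g stood at 391 and 443 CPM in Ctrl and 252 and 184 CPM in WC1 (-0.95 ± 0.17, limma adjusted p = 0.0282). The remaining calls were the activating receptor Fcgr3 and the endotoxin receptor Tlr4. Clec7a (dectin-1, -0.75, limma adjusted p = 0.0529) and Trem2, a lipid receptor of macrophages (-0.94, limma adjusted p = 0.0539), did not pass. Fcgr3, Clec7a, Trem2 and Tlr4 were named after their values were seen.

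Ms4a4b is known from T cells, and its course was compared with theirs. Of 21 tested T and NK cell markers 1 was called lower (Gzmb, granzyme B, -1.21 ± 0.18, limma adjusted p = 0.0213) and 1 higher (Cd247, CD3 zeta, 0.98 ± 0.18, limma adjusted p = 0.0309), with a median of -0.06. Their summed level was 171 and 163 CPM in Ctrl and 185 and 138 CPM in WC1, and the groups overlapped. Most of this sum was Il7r, the interleukin 7 receptor, at 129.9 and 129.2 CPM in Ctrl against 153 and 95.7 CPM in WC1, whereas Cd3e of the T cell receptor complex gave 1.29 and 0.575 CPM in Ctrl against 0.721 and 1.24 CPM in WC1. Both genes, which were named after their values were seen, had overlapping groups, as did Ms4a4b. Relative to the mean of these markers Ms4a4b stood at 0.42 and 0.21 in Ctrl and at 0.45 and 0.54 in WC1.

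Family genes of other cell types did not share one course. The mast cell gene Ms4a2 stood at 4.34 and 3.48 CPM in Ctrl against 0.606 and 0.524 CPM in WC1 (-1.64 ± 0.14, limma adjusted p = 0.0115). Its WC1 mean was 14.4% of Ctrl, a change that the log2(CPM + 1) scale understates near 1 CPM. The groups were far apart, and 7 of 9 mast cell markers were called lower as well, with a median of -2.69 and a summed level of 583 and 650 CPM in Ctrl and 95.1 and 78.5 CPM in WC1. Among them were Fcer1a, the alpha chain that pairs with Ms4a2 (-2.69 ± 0.13, limma adjusted p = 0.00404), and the mast cell receptor Mrgprb1 (-2.42 ± 0.11, limma adjusted p = 0.00404).

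The B cell gene Ms4a1 stood at 0.395 and 0.195 CPM in Ctrl against 0.672 and 5.37 CPM in WC1, so that 1 library set its difference (1.34 ± 0.63, limma adjusted p = 0.188). Of 6 tested B cell markers 1, Cd79b of the B cell receptor, was called higher (0.95 ± 0.23, limma adjusted p = 0.0486), and their median was 0.81. The summed level of B cell markers was 16.03 and 13.86 CPM in Ctrl and 21.8 and 40.5 CPM in WC1, and the library with the high Ms4a1 value was also the highest here. Pax5 and Cr2 on this list were at 0 in some libraries.

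Ms4a4d, which lies between Ms4a6b and Ms4a6d, stood at 32.9 and 32.8 CPM in Ctrl against 25.8 and 23.7 CPM in WC1. It passed the test with a smaller difference than the 4 members (-0.39 ± 0.08, limma adjusted p = 0.0364). Ms4a8a (-0.08 ± 0.12, limma adjusted p = 0.668) and the related membrane proteins Tmem176a (0.19 ± 0.07, limma adjusted p = 0.110) and Tmem176b (0.06 ± 0.08, limma adjusted p = 0.631), which are abundant in antigen-presenting cells, did not pass. Of the 12 other family genes with values, 6 (Ms4a3, Ms4a5, Ms4a10, Ms4a13, Ms4a15 and Ms4a18) were listed at 0 in every library.

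The genes with a pattern most like each member were found by the root mean square distance of the centred log2(CPM + 1) values over the 4 libraries, among 12567 genes. With 4 points from the same libraries many genes lie close, and the order describes these libraries only. For Ms4a7 the nearest was Itgam, the CD11b integrin (distance 0.0167). For Ms4a6c they were Mrc1 (0.0182) and the complement gene C1qa (0.0197). Ms4a6d had no neighbour as close: Creg1, a lysosomal glycoprotein (982 and 910 CPM in Ctrl, 384 and 267 CPM in WC1, distance 0.0637), and Slc45a3 (distance 0.0749) came first. For Ms4a6b the nearest were the phosphatase gene Ptpn1 (0.0181) and Thy1 (0.0306), for Ms4a4c Runx1t1 (0.0224) and Gpc1 (0.0296), and for Ms4a4b Tenm3 (0.027) and Sox12 (0.0299).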

How the data were processed

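RNA-seq of epididymal adipose tissue was analysed in 4 libraries, grouped by their titles. Per the labels the submitters' processing notes name fastp, HISAT2, StringTie and the genome build mm10. The authors deposited a matrix named CPM, a depth-normalised signal in which 100% of values were whole multiples of 1 read to within 0.1 read, and a matrix of TPM, which the authors corrected for transcript length. No source used here states how reads shared by several genes were counted.

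The filter on low values kept genes that reached 0.5 CPM in 2 or more libraries. The groups were compared on log2(CPM + 1) with limma 3.58.1 (R version 4.3.3) and a mean-variance trend (two-sided, Benjamini-Hochberg adjustment, threshold 0.05). An exact permutation test of 2 against 2 libraries cannot go below p = 0.333. The reads recovered from CPM were tested with edgeR 4.0.16 (1007 genes lower, 1476 higher) and DESeq2 1.42.0 (1736 lower, 2125 higher). The other alternatives changed pseudocount, filter, scaling and libraries, and used TPM or a replicate block. Library numbers were not taken as pairs, since the labels give them no shared origin. The scripts were tested on simulated data.

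The members and the gene lists were chosen with earlier results of these data known. Named genes were the members, the other Ms4a genes that passed the filter, the 2 genes with the smallest limma p in each list, the 2 genes nearest in pattern to each member, and Adgre1, Cd68 and Csf1r. Of these, 2 genes are not reported here. The level of 3 reads covers counting error only. Coordinates are from GENCODE on GRCm38, the assembly also called mm10, and start regions from RefSeq on GRCm38.p6.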

Additional observations from a re-analysis of the deposited data

How the results depend on the processing

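Over 14 alternatives, the 4 called members (1 alternative, the scaling to macrophage markers, was chosen after seeing the data) kept their call and direction in 43 of 56 values, lost the call in 13 and reversed in 0. For the 2 other members 25 of 28 values kept direction and side, 1 gained a call and 2 reversed: Ms4a4b, which lay between -0.0288 (without Ctrl 2) and 0.365 (without Ctrl 1) with 1 library left out and gained its call at 0.87 scaled to macrophage markers, and Ms4a4c, at 0.39 when scaled to macrophage markers. Leaving out 1 library at a time, the number of members called lower by limma ranged from 0 to 4; it was 0 without Ctrl 1 and 0 without Ctrl 2, where 4 were lower at an unadjusted p under 0.05 in each fit (over all genes and both directions, 2619 of 13957 and 3103 of 13958). Scaled to macrophage markers, 1 member was called lower and 1 higher. Ms4a7 lost its call with no filter (adjusted p = 0.0711) and with TPM. With 1 library left out the Ms4a6 sum lay between -1.55 and -1.05, and it lost its call without Ctrl 1 (adjusted p = 0.141) and without Ctrl 2 (adjusted p = 0.0994), and scaled to macrophage markers it was -0.60 (adjusted p = 0.0233). The Ms4a4 sum, never called, lay between -0.23 and 0.10 in those fits, and was 0.10 with TPM and 0.635 scaled to macrophage markers. TPM moved the median of all genes by 0.12, and relative to it Ms4a6d was at -1.61 and Ms4a7 at -0.93. Scaling to macrophage markers moved that median by 0.698. Relative to it Ms4a4b (0.187) and Ms4a4c (-0.287) were the same as without the scaling. With the replicate block 4 members were called lower, 0 higher, the same as without it. Over all 14106 genes the block gave 1497 lower and 1769 higher, against 1088 and 1443 without it. The Ms4a6 sum stood at -1.30 and the Ms4a4 sum at -0.06 with the block. The within-number deviations correlated with r = 0.194 over 14106 genes. The cause of these changes was not tested.

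Over all genes, 1088 were called lower and 1443 higher (57.0% of calls higher). The counts were 532 and 788 with no filter, 552 and 1949 with TPM (77.9% higher), 1736 and 2125 with DESeq2, 4 and 2 without Ctrl 1, 10 and 6 without Ctrl 2, 2797 and 2422 without WC1 1, and 121 and 8295 scaled to macrophage markers (98.6% higher). With 2 libraries per group, whether depth or the spread between libraries limits the members was not tested.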

Other observations

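Other immune and tissue lists gave further values. Of 22 interferon-induced genes 3 were called higher in WC1, where 10.2% of all genes were called higher, with a median log2 difference of 0.12 against -0.02 over all genes tested. Gbp3, an interferon-induced GTPase, stood at 14.8 and 15.5 CPM in Ctrl against 20.6 and 24.7 CPM in WC1 (0.55 ± 0.11 SE, limma adjusted p = 0.0367). Gbp3 was above Ctrl in both WC1 libraries, and the 4 called Ms4a members were below Ctrl in the same libraries.

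Of 8 dendritic cell markers 3 were called lower and 1 higher, with a median of -0.21. Ccr7, the chemokine receptor of migrating dendritic cells, was lower (-1.06 ± 0.20 SE, limma adjusted p = 0.0319), and Zbtb46, a transcription factor of classical dendritic cells, was higher (0.61 ± 0.13 SE, limma adjusted p = 0.039). Of 10 adipocyte markers 7 were called higher, with a median of 1.11, among them the glycerol channel Aqp7 (1.20 ± 0.13 SE, limma adjusted p = 0.0139) and the lipid droplet protein Plin1 (1.03 ± 0.18 SE, limma adjusted p = 0.0265). The adipocyte markers summed to 9804 and 10970 CPM in Ctrl and 17690 and 22890 CPM in WC1. CPM is a share of the reads of a library, and the part of this rise in the lower Ms4a values was not tested.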
